A study of Mus musculus with 6 samples.

Results

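The genes described here are the 8 mouse genes for inhibitors of the cyclin-dependent kinases (CDKs): Cdkn1a, Cdkn1b, Cdkn1c, Cdkn2a, Cdkn2b, Cdkn2c, Cdkn2d and Cdkn3. They were chosen by symbol, as given in the deposited gene identifiers, out of 46517 genes, and all 8 were present. CDKs drive a cell through its division cycle once a cyclin binds them. The Cip/Kip proteins (p21, p27 and p57, from Cdkn1a, Cdkn1b and Cdkn1c) bind whole cyclin-CDK complexes and block mainly CDK2. The INK4 proteins (from Cdkn2a, Cdkn2b, Cdkn2c and Cdkn2d) bind CDK4 and CDK6 and keep D-type cyclins off them, which leaves the retinoblastoma protein active and E2F target genes silent. Cdkn3 differs in kind: it codes for a phosphatase that removes the activating phosphate from CDKs, and its transcript is itself most abundant in dividing cells. In skin, p21 and p27 are best known for the cell cycle arrest that accompanies keratinocyte differentiation, and the hair follicle stem cells are known for long quiescence broken by short bursts of division at the start of hair growth.

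Hair germ stem cells came from back skin of mice of mixed sex, 60 days old and 3 days past depilation, the pulling of hair that starts a new growth cycle, and their messenger RNA was sequenced. Cells were sorted on YFP, integrin beta 1, CD34, Sca-1 and P-cadherin. All 3 groups carried Sox9-CreER, an inducible Cre under the Sox9 promoter, and the R26-lox-stop-lox-YFP reporter. The double knockout, LEF1_TCF7dKO, added Lef1fl/fl and Tcf7-/-. The conditional knockout, LEF1cKO, added Lef1fl/fl alone, and the WT mice carried the driver and the reporter only. Lef1 and Tcf7 code for transcription factors that act on DNA together with beta-catenin at the end of the Wnt pathway. By this design Lef1 loss was confined to cells with Sox9-CreER activity and their progeny, whereas Tcf7 was missing from the whole animal. Each group had 2 libraries. The labels do not say that they came from separate animals, so p-values measure the spread between these libraries, which may be technical. The 3 comparisons were the double knockout against WT, the double knockout against LEF1cKO, which adds the loss of Tcf7, and LEF1cKO against WT, which tests the loss of Lef1 alone.

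Libraries held 40480694 to 63220022 estimated counts, with the fewest in the double knockout. Gene-level counts do not separate the deleted exons from the rest of a transcript. Lef1 stood at 9.22 and 9.42 TPM (transcript abundance corrected for length and scaled to the same total in every library) in the double knockout, 13.51 and 8.37 TPM in LEF1cKO and 21.44 and 20.36 TPM in WT. Lef1 was lower in the double knockout than in WT (log2 fold change -1.27 ± 0.25 SE, edgeR adjusted p = 0.0122, highest 0.0828 when 1 library was left out) and missed the threshold in LEF1cKO (edgeR adjusted p = 0.282, 0.0317 without LEF1cKO replicate 1). Tcf7 stood at 13.65 and 18.0 TPM in the double knockout, 29.31 and 27.79 TPM in LEF1cKO and 26.93 and 36.01 TPM in WT. Tcf7 fell in the double knockout against WT (log2 fold change -1.37 ± 0.21, edgeR adjusted p = 0.00641). Krt5 and Krt14, keratins of basal keratinocytes and so not particular to the hair germ, were at 2757 TPM or more in every library. Markers of several other cell types moved with the genotype. The summed level of 12 suprabasal epidermis markers was 13273 to 14108 TPM in the double knockout, 3438 to 3579 TPM in LEF1cKO and 1469 to 1783 TPM in WT, and 10 of the 12 rose in the double knockout against WT. Rises and falls there numbered 9 and 0 of 12 leukocyte, 7 and 1 of 12 fibroblast, 8 and 0 of 8 endothelial, 2 and 0 of 8 sebaceous, 1 and 0 of 8 melanocyte, 0 and 8 of 10 hair shaft, and 5 and 6 of 12 hair germ and bulge markers. Over all genes tested in that comparison, 18.0% rose and 19.6% fell, and the sebaceous and melanocyte counts lie near those shares. The melanocyte markers had a median log2 fold change of -0.45. Of the hair germ and bulge markers, Cd34, Itga6, Krt14, Krt15 and Nfatc1 rose, and Cdh3 (P-cadherin), Lef1, Lgr5, Lhx2, Sox9 and Tcf7l1 fell. Leukocyte markers summed to 1159.6 to 1235 TPM in the double knockout, 269.9 to 453 TPM in LEF1cKO and 68.6 to 174 TPM in WT. Fibroblast markers summed to 1704 to 1985, 557 to 1062 and 312 to 449.9 TPM in the same order of groups. No marker of these lists was at 0 in all libraries. The part of these cells in the values below was not tested, and in sorted bulk RNA a change in the share of a cell type and a change in RNA per cell cannot be told apart.

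The 7 promoter windows of the 5 members that changed in a comparison are shown first, since these genes carry the results below. Each is the RefSeq window from 250 bases before to 50 bases after a transcription start, on build GRCm38.p6, written 5′ to 3′ on the strand of the gene. Capitals mark matches to 5 motifs on either strand: TCAAAG, the core bound by LEF1 and TCF factors; TTTGAA or TTCGAA, the cell cycle homology region of genes expressed late in the cycle; GCGGGAAA or GCGCCAAA, bound by E2F factors; CCAAT, the CCAAT box; and the p53 element, taken as a pair of adjacent sites with no spacer and at most 1 mismatch. Matches to GGGCGG, the GC box bound by Sp1-type factors, were counted but not capitalised. Positions count the start base as 1 and the base before it as -1.
Cdkn1a, upstream start, chr17:29090729-29091028, plus strand: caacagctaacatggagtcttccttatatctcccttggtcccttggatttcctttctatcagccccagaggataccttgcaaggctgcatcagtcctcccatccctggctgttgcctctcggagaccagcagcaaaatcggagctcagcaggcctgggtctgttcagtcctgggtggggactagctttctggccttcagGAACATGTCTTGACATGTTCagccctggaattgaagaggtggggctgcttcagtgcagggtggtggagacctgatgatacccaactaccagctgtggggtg
Cdkn1a, downstream start, chr17:29093519-29093818, plus strand: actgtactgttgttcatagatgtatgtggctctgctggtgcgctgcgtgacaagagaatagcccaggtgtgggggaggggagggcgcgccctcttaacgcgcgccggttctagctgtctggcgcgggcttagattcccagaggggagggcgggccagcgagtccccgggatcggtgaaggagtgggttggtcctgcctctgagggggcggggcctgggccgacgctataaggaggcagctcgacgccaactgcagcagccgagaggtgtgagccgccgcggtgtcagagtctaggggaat
Cdkn1b, chr6:134920151-134920450, plus strand: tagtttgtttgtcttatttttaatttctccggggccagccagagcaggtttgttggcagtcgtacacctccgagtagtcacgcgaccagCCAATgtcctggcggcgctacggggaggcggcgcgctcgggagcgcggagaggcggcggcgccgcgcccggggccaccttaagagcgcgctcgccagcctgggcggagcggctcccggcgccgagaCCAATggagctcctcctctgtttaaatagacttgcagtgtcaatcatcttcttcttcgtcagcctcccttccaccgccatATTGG
Cdkn2b, chr4:89310983-89311282, minus strand: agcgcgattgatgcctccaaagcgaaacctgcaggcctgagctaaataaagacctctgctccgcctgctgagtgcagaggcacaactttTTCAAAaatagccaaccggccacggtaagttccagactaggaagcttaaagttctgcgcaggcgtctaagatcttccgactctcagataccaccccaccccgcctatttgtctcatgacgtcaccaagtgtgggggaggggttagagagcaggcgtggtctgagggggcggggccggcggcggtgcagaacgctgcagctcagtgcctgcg
Cdkn2c, upstream start, chr4:109666707-109667006, minus strand: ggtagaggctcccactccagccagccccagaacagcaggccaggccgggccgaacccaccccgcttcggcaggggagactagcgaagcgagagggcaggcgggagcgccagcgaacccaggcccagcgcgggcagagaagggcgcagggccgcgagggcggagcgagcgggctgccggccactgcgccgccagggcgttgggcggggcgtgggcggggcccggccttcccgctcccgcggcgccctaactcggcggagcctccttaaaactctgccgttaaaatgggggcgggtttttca
Cdkn2c, downstream start, chr4:109665323-109665622, minus strand: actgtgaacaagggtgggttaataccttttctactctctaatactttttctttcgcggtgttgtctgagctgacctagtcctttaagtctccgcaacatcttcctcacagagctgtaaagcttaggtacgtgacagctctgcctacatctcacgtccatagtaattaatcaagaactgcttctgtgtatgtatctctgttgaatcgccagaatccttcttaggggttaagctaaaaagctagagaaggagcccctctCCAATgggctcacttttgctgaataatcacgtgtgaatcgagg
Cdkn3, chr14:46760291-46760590, plus strand: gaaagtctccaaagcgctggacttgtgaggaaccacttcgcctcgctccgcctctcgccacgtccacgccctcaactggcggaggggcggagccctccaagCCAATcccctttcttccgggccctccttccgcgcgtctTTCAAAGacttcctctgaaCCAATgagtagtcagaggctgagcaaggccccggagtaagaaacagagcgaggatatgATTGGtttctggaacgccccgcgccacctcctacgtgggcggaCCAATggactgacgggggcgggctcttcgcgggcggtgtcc

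The upstream Cdkn1a window held a p53 element from -51 to -32, a match found in 29 of the 32851 mouse promoter windows, or 0.0883%. Its downstream window held none of the capitalised motifs and 2 GC boxes. Cdkn1b held CCAAT boxes beginning at -161, -35 and 46. A window with 3 or more of them was uncommon, at 3.37% of all windows. Cdkn2b held 1 cell cycle homology region word, on the minus strand relative to the gene, from -161 to -156; 19.2% of all windows hold such a word. The upstream Cdkn2c window held no capitalised motif and 4 GC boxes, and 5.49% of all windows hold at least 4. Its downstream window held a CCAAT box beginning at 8, as 37.4% of all windows hold at least 1, and no GC box. Among the 10 windows of 7 members searched, the Cdkn3 window alone held a LEF/TCF core, from -110 to -105, a word present in 16.0% of all windows. This core overlaps a cell cycle homology region word read on the other strand from -111 to -106, so the pair is 1 stretch of sequence. Cdkn3 also held CCAAT boxes beginning at -149, -92, -34 and 10, and 1.06% of all windows hold at least 4. The CCAAT, GC box and p53 motifs were added to the search after the sequences had been seen. A match describes the letters in a window only. Cdkn1c is named without a sequence and was not searched.

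Together the 8 genes gave more transcript in the double knockout than in the other groups, and which genes supplied it differed. Their summed level was 375 to 411 TPM in the double knockout, 289 to 293 TPM in LEF1cKO and 280.4 to 281.6 TPM in WT. Cdkn1a alone stood at 285.81 and 239.08 TPM in the double knockout and 85.24 and 90.82 TPM in WT. That difference exceeds the one in the sum, so the other members together were lower in the double knockout than in WT. Of the 8, 7 had enough counts to be tested; Cdkn2a did not. Against WT, 5 of the 7 changed in the double knockout at an edgeR adjusted p under 0.05: Cdkn1a and Cdkn2b rose, and Cdkn1b, Cdkn2c and Cdkn3 fell. Over all 19640 genes tested in this comparison, 37.6% were called, 18.0% upward and 19.6% downward, so a count of 5 among 7 stands against a high background. In the double knockout against LEF1cKO, 4 of the 7 changed, Cdkn1a and Cdkn2b upward and Cdkn2c and Cdkn3 downward, where 25.2% of all genes were called, 11.2% upward and 14.1% downward. In LEF1cKO against WT none of the 7 was called, where 0.601% of all genes were called, 0.224% upward and 0.377% downward. Of the 7, 1 had an unadjusted edgeR p under 0.05, and DESeq2 called 0. With 2 libraries a group, the lack of a call does not show that a gene was unchanged.

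**Figure D1:**
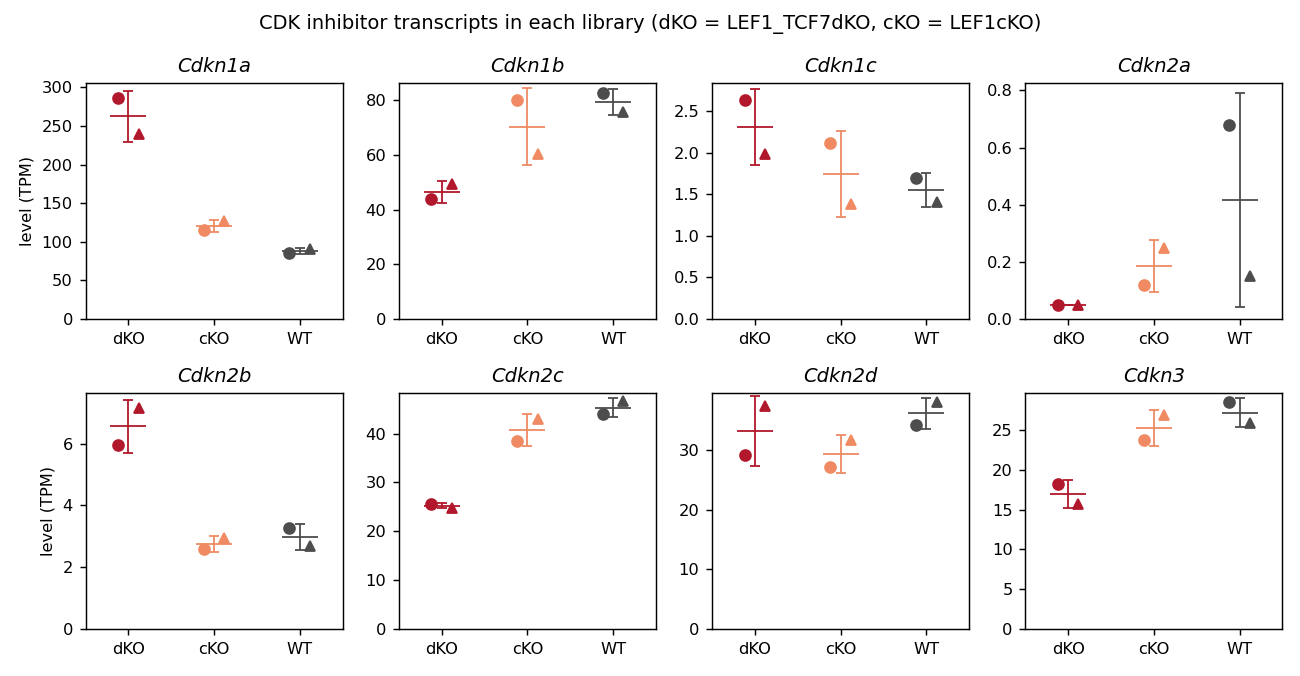
Level of each of the 8 CDK inhibitor genes in TPM, 1 panel a gene, with the y axis starting at 0; points are single libraries (circle, replicate 1; triangle, replicate 2) of LEF1_TCF7dKO, LEF1cKO and WT from left to right, and bars give the mean ± SD. Cdkn1a and Cdkn2b are highest in the double knockout, Cdkn1b, Cdkn2c and Cdkn3 are lowest there, and Cdkn2a is below 1 TPM in every library.

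On the TPM scale, which corrects for transcript length, the order of mean levels in WT and in LEF1cKO was Cdkn1a, Cdkn1b, Cdkn2c, Cdkn2d, Cdkn3, Cdkn2b, Cdkn1c and Cdkn2a. In WT the libraries of Cdkn1a and Cdkn1b, 85.24 and 90.82 TPM against 82.82 and 75.91 TPM, lay close together. In the double knockout Cdkn2d stood above Cdkn2c, and Cdkn1a stood far above the rest. Among all genes ranked by mean TPM, Cdkn1a was number 468 in the double knockout, 1231 in LEF1cKO and 1770 in WT. Cdkn1b ranked 3460, 2321 and 1992 in the same order of groups, and Cdkn2c ranked 6000, 4061 and 3591.

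Cdkn1a, the p21 gene, lies at chr17:29090976-29100727 on the plus strand (mm10 coordinates from GENCODE M21, as for all members). It measured 285.81 and 239.08 TPM in the double knockout, 114.64 and 126.29 TPM in LEF1cKO and 85.24 and 90.82 TPM in WT. The groups did not overlap, with the double knockout highest and WT lowest. Group means were 262 ± 33.0 TPM in the double knockout, 120 ± 8.24 TPM in LEF1cKO and 88.0 ± 3.95 TPM in WT (SD, n = 2 each). Cdkn1a rose 2.67-fold in the double knockout against WT (log2 fold change 1.42 ± 0.11 SE, 95% interval 1.14 to 1.70, edgeR adjusted p = 0.00229), and the call held with any 1 library left out (highest adjusted p 0.0204). It also rose 2.08-fold against LEF1cKO (1.06 ± 0.11, interval 0.78 to 1.33, edgeR adjusted p = 0.0107, 0.0777 without double knockout replicate 1). In LEF1cKO against WT the estimate was 1.29-fold (0.36 ± 0.11, interval 0.09 to 0.64); its unadjusted edgeR p was 0.0178 and its adjusted p 0.359, with a range of 0.136 to 1 over the 17 alternatives. The window printed above with the p53 element belongs to the upstream of its starts; gene-level values do not say which start was used. In the same libraries Krt10, a keratin of suprabasal epidermis, where p21 is known to be expressed, stood at 5916 and 5887 TPM in the double knockout, 1493 and 1439.95 TPM in LEF1cKO and 587 and 437 TPM in WT. The part of such cells in the Cdkn1a difference was not tested.

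Cdkn1b, the p27 gene at chr6:134920401-134925513 on the plus strand, ran the other way. It measured 43.73 and 49.29 TPM in the double knockout, 80.30 and 60.50 TPM in LEF1cKO and 82.82 and 75.91 TPM in WT. Both double knockout libraries were below all others, while LEF1cKO and WT overlapped. The means were 46.5 ± 3.93, 70.4 ± 14.0 and 79.4 ± 4.89 TPM in the double knockout, LEF1cKO and WT (SD, n = 2 each). Cdkn1b fell to 0.520 of the WT level in the double knockout (log2 fold change -0.94 ± 0.21, interval -1.46 to -0.43, edgeR adjusted p = 0.0179). That call was lost when any double knockout or WT library was left out, with adjusted p of 0.110 and 0.0648 without double knockout replicates 1 and 2, and 0.0890 and 0.0742 without WT replicates 1 and 2. Against LEF1cKO the difference of -0.66 ± 0.21 missed the threshold (edgeR adjusted p = 0.0649) and passed in 6 of 17 alternatives, over which adjusted p ran from 0.00545 to 0.250. Between LEF1cKO and WT it was -0.28 ± 0.21 (edgeR adjusted p = 0.766).

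Cdkn1c, the p57 gene at chr7:143458339-143461050 on the minus strand, is imprinted and expressed from the maternal copy. It was low throughout, at 2.63 and 1.98 TPM in the double knockout, 2.11 and 1.38 TPM in LEF1cKO and 1.70 and 1.41 TPM in WT, from 84 to 117 counts a library. The double knockout lay above WT without overlap and overlapped LEF1cKO. No comparison passed: the difference was 0.42 ± 0.34 against WT (interval -0.40 to 1.25, edgeR adjusted p = 0.365), and 0.32 ± 0.34 against LEF1cKO. For LEF1cKO against WT it was 0.10 ± 0.34 (edgeR adjusted p = 0.969). The interval against WT is wide and takes in both 0 and the change of 1.01 seen in Cdkn2b.

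Cdkn1a and Cdkn1b moved in opposite directions, and the makeup of the Cip/Kip transcripts differed between groups. The 3 genes summed to 332.17 and 290.35 TPM in the double knockout, 197.05 and 188.17 TPM in LEF1cKO and 169.76 and 168.14 TPM in WT. Cdkn1a made up 86.0% and 82.3% of that sum in the double knockout, 58.2% and 67.1% in LEF1cKO and 50.2% and 54.0% in WT. Cdkn1b made up 13.2% and 17.0%, 40.8% and 32.2%, and 48.8% and 45.1% in the same order of groups. Thus p21 and p27 transcripts were near parity in WT. The ratio of Cdkn1a to Cdkn1b in TPM was 6.54 and 4.85 in the double knockout, 1.43 and 2.09 in LEF1cKO and 1.03 and 1.196 in WT.

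**Figure D2:**
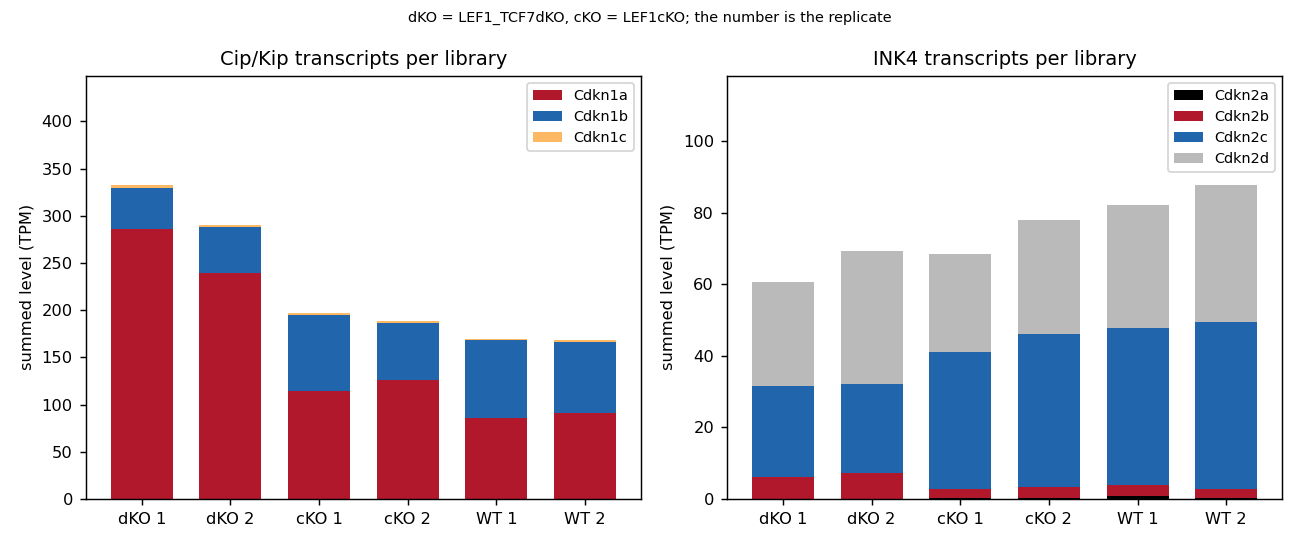
Stacked bars of TPM in each library, with the Cip/Kip genes (Cdkn1a, Cdkn1b, Cdkn1c) in one panel and the INK4 genes (Cdkn2a to Cdkn2d) in the other; libraries run from LEF1_TCF7dKO through LEF1cKO to WT. The Cip/Kip sum is 290.35 to 332.17 TPM in the double knockout against 168.14 to 169.76 TPM in WT and is mostly Cdkn1a there, while the INK4 sum is 60.71 to 69.41 TPM against 82.15 to 87.61 TPM.

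Among the INK4 genes, Cdkn2b, the p15 gene at chr4:89306299-89311039 on the minus strand, is known as a target of TGF-beta signalling. It measured 5.96 and 7.16 TPM in the double knockout, 2.58 and 2.94 TPM in LEF1cKO and 3.27 and 2.68 TPM in WT, from 104 to 249 counts a library. Both double knockout libraries were above all others, and LEF1cKO and WT overlapped. Cdkn2b rose 2.01-fold against WT (log2 fold change 1.01 ± 0.25, interval 0.40 to 1.61, edgeR adjusted p = 0.0241) and 2.28-fold against LEF1cKO (1.19 ± 0.25, interval 0.58 to 1.80, edgeR adjusted p = 0.0238). The first call was lost without double knockout replicate 1 (0.0518) or 2 (0.0847) and without WT replicate 1 (0.0909) or 2 (0.174). The second was kept without LEF1cKO replicate 2 (0.0452) and lost without any of the other 5 libraries (0.0551 to 0.0948). LEF1cKO differed from WT by -0.18 ± 0.25 (edgeR adjusted p = 0.905).

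Cdkn2c, the p18 gene at chr4:109660876-109667189 on the minus strand, fell while its relative Cdkn2b rose. It measured 25.55 and 24.83 TPM in the double knockout, 38.48 and 42.98 TPM in LEF1cKO and 43.90 and 46.69 TPM in WT. The 3 groups did not overlap, with the double knockout lowest and WT highest. Means were 25.2 ± 0.509, 40.7 ± 3.18 and 45.3 ± 1.97 TPM in the double knockout, LEF1cKO and WT (SD, n = 2 each). Cdkn2c fell to 0.486 of the WT level (log2 fold change -1.04 ± 0.10, interval -1.30 to -0.79, edgeR adjusted p = 0.00340), and the call held with any 1 library left out (highest 0.0309). It fell to 0.571 of the LEF1cKO level (-0.81 ± 0.10, interval -1.06 to -0.55, edgeR adjusted p = 0.0113, 0.0780 without double knockout replicate 1). LEF1cKO differed from WT by -0.23 ± 0.10 (unadjusted p = 0.0628, edgeR adjusted p = 0.567).

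Cdkn2d, which codes for the INK4 protein p19, lies at chr9:21288410-21291407 on the minus strand. It measured 29.15 and 37.37 TPM in the double knockout, 27.18 and 31.69 TPM in LEF1cKO and 34.30 and 38.09 TPM in WT. The double knockout overlapped both other groups, and LEF1cKO lay below WT without overlap. No difference passed: -0.26 ± 0.16 in the double knockout against WT (interval -0.66 to 0.14, edgeR adjusted p = 0.257), 0.12 ± 0.16 against LEF1cKO (interval -0.28 to 0.52), and -0.38 ± 0.16 in LEF1cKO against WT (interval -0.78 to 0.02, edgeR adjusted p = 0.558). The interval against WT excludes a fall as large as that of Cdkn2c.

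Cdkn2a, at chr4:89274471-89294653 on the minus strand, codes for p16INK4a and, from a second start and another reading frame, for ARF, an inhibitor of the p53 ligase Mdm2. It was close to undetected, with 1 and 1 counts in the double knockout, 3 and 7 counts in LEF1cKO and 19 and 5 counts in WT. These are 0.05 and 0.05 TPM, 0.12 and 0.25 TPM, and 0.68 and 0.15 TPM. The gene failed the filter on low counts and was not tested, and the double knockout lay under the floor of 3 counts a library, so no fold is given. WT replicate 1 held most of the counts. Cdkn2a is the nearest neighbour of Cdkn2b, 11.6 kb away, and in the double knockout libraries, where Cdkn2b rose, the Cdkn2a counts were under that floor.

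The INK4 genes summed to 60.71 and 69.41 TPM in the double knockout, 68.36 and 77.86 TPM in LEF1cKO and 82.15 and 87.61 TPM in WT. Cdkn2b supplied 9.82% and 10.3% of this sum in the double knockout, 3.77% and 3.78% in LEF1cKO and 3.98% and 3.06% in WT. Cdkn2c supplied 42.1% and 35.8%, 56.3% and 55.2%, and 53.4% and 53.3% in the same order. Most INK4 transcript in every library therefore came from Cdkn2c and Cdkn2d. The ratio of Cdkn2c to Cdkn2b was 4.29 and 3.47 in the double knockout, 14.9 and 14.6 in LEF1cKO and 13.4 and 17.4 in WT.

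Cdkn3, the CDK-associated phosphatase gene at chr14:46760541-46771669 on the plus strand, measured 18.24 and 15.70 TPM in the double knockout, 23.72 and 26.91 TPM in LEF1cKO and 28.51 and 25.89 TPM in WT. The double knockout lay below both other groups, which overlapped each other. Cdkn3 fell to 0.566 of the WT level (log2 fold change -0.82 ± 0.16, interval -1.22 to -0.43, edgeR adjusted p = 0.0121); without WT replicate 1 or 2 the adjusted p was 0.107 or 0.0798. It fell to 0.642 of the LEF1cKO level (-0.64 ± 0.16, interval -1.03 to -0.25, edgeR adjusted p = 0.0366), a call lost in every fit without 1 library (0.0628 to 0.105) and kept in 6 of 17 alternatives. LEF1cKO differed from WT by -0.18 ± 0.16 (edgeR adjusted p = 0.815).

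**Figure D3:**
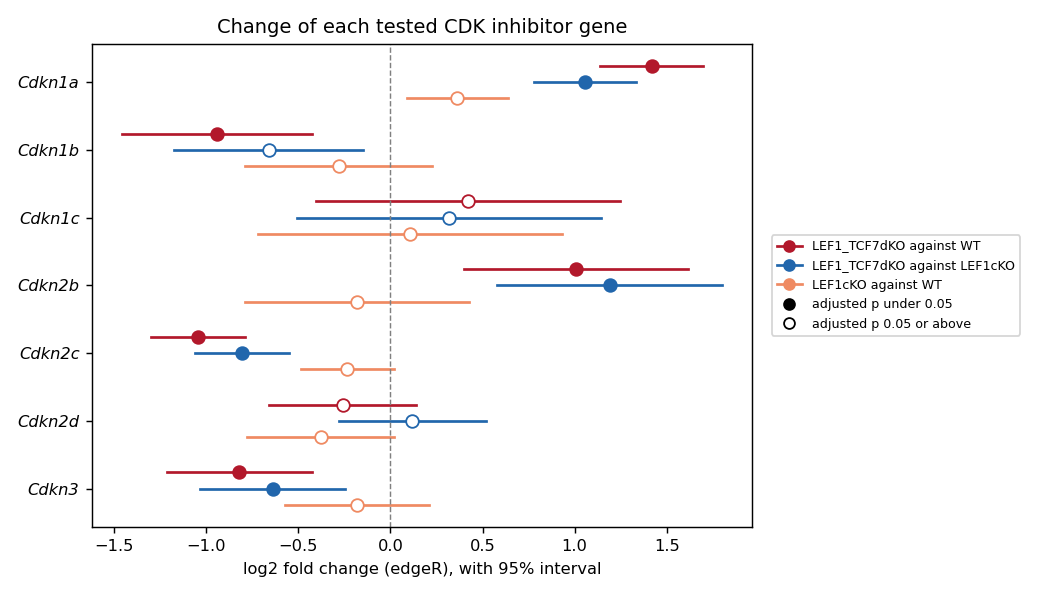
Log2 fold change with its 95% interval for the 7 tested CDK inhibitor genes in LEF1_TCF7dKO against WT, LEF1_TCF7dKO against LEF1cKO and LEF1cKO against WT; filled points passed an edgeR adjusted p under 0.05. Filled points appear in both comparisons of the double knockout (5 and 4 genes) and none in LEF1cKO against WT, where the estimates run from -0.38 for Cdkn2d to 0.36 for Cdkn1a.

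The comparisons with the double knockout share its 2 libraries, so they are not independent. Across them Cdkn1a had log2 fold changes of 1.42 and 1.06, Cdkn2b 1.01 and 1.19, Cdkn2c -1.04 and -0.81, Cdkn3 -0.82 and -0.64, and Cdkn1b -0.94 and -0.66, against WT and against LEF1cKO in that order. Without double knockout replicate 1, the calls against LEF1cKO of the members and of the genes in the lists below were lost. That fit leaves 1 library in the group. So does the fit without double knockout replicate 2, in which Cdkn1a and Cdkn2c kept their calls. What set these fits apart, and whether the calls came from replicate 1, was not tested. Over fits without 1 library, log2 fold changes against LEF1cKO were 0.95 to 1.16 for Cdkn1a and -0.90 to -0.72 for Cdkn2c. Those of Cdkn3 were -0.72 to -0.57, and Cdkn2b stayed upward. The 2 double knockout libraries differed in markers of other cells. Endothelial and mural markers summed to 207.9 TPM in replicate 1 and 74.4 TPM in replicate 2, and sebaceous gland markers to 1972 and 756 TPM. The part of these cells in the calls was not tested. The median log2 fold change of all genes was 0.01 in both comparisons with the double knockout.

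Among the kinases and cyclins that these proteins bind, falls prevailed. Of 12 such genes tested, 10 fell and 1, Cdk6, rose in the double knockout against WT, with a median log2 fold change of -1.33. Against LEF1cKO 10 fell and 0 rose, and none was called in LEF1cKO against WT. Over all genes tested, 19.6% fell in the double knockout against WT and 14.1% against LEF1cKO. Ccnd1, cyclin D1, measured 54.06 and 74.62 TPM in the double knockout, 130.99 and 151.58 TPM in LEF1cKO and 117.37 and 119.04 TPM in WT. The fall in the double knockout against WT was -1.001 ± 0.17 (edgeR adjusted p = 0.00833, 0.0603 without WT replicate 2). Ccnd2, cyclin D2, averaged 84.5 TPM in the double knockout, 176 TPM in LEF1cKO and 256 TPM in WT (-1.70 ± 0.22, edgeR adjusted p = 0.00460). Cdk4, the main partner of the INK4 proteins here by level, averaged 363 TPM in the double knockout, 769 TPM in LEF1cKO and 835 TPM in WT (-1.28 ± 0.15, edgeR adjusted p = 0.00409). Cdk1, the kinase of mitosis, averaged 102 TPM in the double knockout, 259.8 TPM in LEF1cKO and 293 TPM in WT (-1.65 ± 0.18, edgeR adjusted p = 0.00350). Cdk2, the main target of p21 and p27, fell as well, at -0.66 ± 0.14 (edgeR adjusted p = 0.0152), and lost its call without double knockout replicate 1 or either WT library. Cdk6 averaged 20.8 TPM in the double knockout against 18.4 TPM in WT (0.42 ± 0.10, edgeR adjusted p = 0.0214); its adjusted p was 0.774 once effective lengths were offset and 0.244 on log2(TPM + 1). Ccnd1, Ccnd2, Cdk2, Cdk4 and Cdk6 were named after their values had been seen.

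The levels of the inhibitors relative to their partners are given as ratios of TPM, with no test. The ratio of Cdkn1a to Ccnd1 was 5.29 and 3.20 in the double knockout, 0.875 and 0.833 in LEF1cKO and 0.726 and 0.763 in WT. The ratio of Cdkn1b to Cdk2 was 0.822 and 0.807 in the double knockout, 0.950 and 0.822 in LEF1cKO and 1.01 and 0.908 in WT. The double knockout libraries were lowest, next to LEF1cKO replicate 2 and below both WT libraries. Cdkn2c to Cdk4 gave 0.0812 and 0.0602 in the double knockout, 0.0502 and 0.0557 in LEF1cKO and 0.0529 and 0.0555 in WT. Both double knockout libraries were above the others, although Cdkn2c itself fell. Cdkn3 to Cdk1 gave 0.179 and 0.153 in the double knockout, 0.0791 and 0.123 in LEF1cKO and 0.0942 and 0.0911 in WT. These ratios are of transcripts, not of proteins or complexes.

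Downstream of the kinases, 11 of 13 tested genes of the Rb family and E2F factors fell in the double knockout against WT and none rose, with a median of -0.69. E2f8, a repressor of the E2F family, averaged 14.0 TPM in the double knockout, 27.02 TPM in LEF1cKO and 28.1 TPM in WT (-1.14 ± 0.10, edgeR adjusted p = 0.00259). Rbl1, the Rb relative p107, fell by 1.08 and Tfdp1, the E2F dimer partner, fell by 1.03 on the log2 scale (edgeR adjusted p = 0.00386 and 0.00409). The number that fell was between 3 and 11 when 1 library was left out. Against LEF1cKO 9 fell, and none was called in LEF1cKO against WT. The shares of all genes tested that fell were 19.6% in the double knockout against WT and 14.1% against LEF1cKO.

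In a list of ubiquitin ligase genes tied to p27 and p21, falls also prevailed. Of 13 tested, 11 fell and 1 rose in the double knockout against WT (median -0.66), and 11 fell against LEF1cKO. Among all genes tested, 19.6% and 14.1% fell in these comparisons. The list also held Cks2 and Fzr1 and was not limited to subunits that mark p27 or p21 for destruction. The number of falls was 4 to 11 with 1 library left out. Skp2, the F-box protein that recognises p27, measured 9.92 and 9.97 TPM in the double knockout, 22.88 and 22.67 TPM in LEF1cKO and 23.86 and 23.81 TPM in WT. The double knockout was lower than WT (-1.36 ± 0.10, edgeR adjusted p = 0.00183). Its cofactor Cks1b averaged 68.4, 147 and 162 TPM in the double knockout, LEF1cKO and WT (-1.38 ± 0.14, edgeR adjusted p = 0.00331). The exception was Rnf123, a subunit of another ligase of p27, at 51.7, 34.8 and 34.4 TPM (0.41 ± 0.11, edgeR adjusted p = 0.0307, lost without double knockout replicate 1 or either WT library). Transcript falls of Cdkn1b and of Skp2 and Cks1b were thus seen in the same libraries. The p27 protein was not measured.

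Of 31 tested genes for transcriptional regulators of these inhibitors, 4 rose and 12 fell in the double knockout against WT (median -0.31), and 5 rose and 9 fell against LEF1cKO. Over all genes tested, 18.0% rose and 19.6% fell against WT, and 11.2% rose and 14.1% fell against LEF1cKO. Klf4, a factor of differentiating epidermis known to activate Cdkn1a, measured 539.3 and 481.4 TPM in the double knockout, 239.66 and 229.92 TPM in LEF1cKO and 186.49 and 213.67 TPM in WT (1.21 ± 0.14, edgeR adjusted p = 0.00376 in the double knockout against WT). The Polycomb genes, known for silencing the Cdkn2a to Cdkn2b locus, split. Ezh2, Suz12 and Bmi1 fell (-1.08 ± 0.16, -0.86 ± 0.13 and -0.93 ± 0.13, edgeR adjusted p = 0.00630, 0.00580 and 0.00530), as did Eed, Rnf2, Cbx2 and Cbx8. Cbx7 rose (1.34 ± 0.17, edgeR adjusted p = 0.00426), at 14.6 TPM in the double knockout, 6.42 TPM in LEF1cKO and 5.39 TPM in WT, and Ezh1 rose by 0.63 on the log2 scale (edgeR adjusted p = 0.00718, lost without WT replicate 2). Smad3, which carries the TGF-beta signal, averaged 10.7 TPM in the double knockout, 18.6 TPM in LEF1cKO and 15.4 TPM in WT and fell against WT (-0.68 ± 0.10, edgeR adjusted p = 0.00633, lost without WT replicate 2). Myc, which represses Cdkn1a and Cdkn2b in other settings, averaged 143 TPM in the double knockout against 73.0 TPM in WT (0.82 ± 0.21, edgeR adjusted p = 0.0250, lost without any double knockout or WT library). Over all 31 genes, the number of rises was 2 to 5 and of falls 3 to 15 with 1 library left out. Ezh1, Ezh2 and Myc were named for the first comparison after their values had been seen.

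Cdkn1a is a textbook target of p53, and 24 other p53 targets were tested. Of these 5 rose and 4 fell in the double knockout against WT (median 0.26), against LEF1cKO 2 rose and 3 fell, and in LEF1cKO against WT none was called. Those that rose were Cd80, Fas, Perp, Sesn2 and Zmat3, and those that fell were Bax, Ddit4, Gtse1 and Psrc1. Over all genes tested, 37.6% were called in the double knockout against WT and 25.2% against LEF1cKO. The counts of called p53 targets lie near those shares. Perp, a desmosome protein of stratified epithelia, averaged 1598 TPM in the double knockout, 973 TPM in LEF1cKO and 869 TPM in WT (0.74 ± 0.13, edgeR adjusted p = 0.00812, 0.0713 and 0.0782 without WT replicates 1 and 2). Gtse1 and Psrc1, both of the mitotic apparatus, fell by 1.004 and 1.26 on the log2 scale (edgeR adjusted p = 0.00406 and 0.00394). The number of rises was 0 to 8 with 1 library left out and was 0 without either WT library. Mdm2, the p53 ligase and itself a target, averaged 47.9 TPM in the double knockout and 34.5 TPM in WT (0.33 ± 0.13, edgeR adjusted p = 0.0951; it passed in 7 of 17 alternatives). Trp53 averaged 127 TPM in the double knockout and 168 TPM in WT and fell (-0.53 ± 0.14, edgeR adjusted p = 0.0335, lost without double knockout replicate 1 or either WT library). Mdm2 and Trp53 were named after their values had been seen.

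Cdkn3 is itself expressed in dividing cells, so it was set beside 26 genes of mitosis. All 26 were lower in the double knockout than in WT and passed the test, with a median of -1.39, and 25 or 26 fell in each fit without 1 library; 25 fell and 1, Pttg1, rose against LEF1cKO. Cdkn3, at -0.82, fell less than that median. Over all genes tested, 19.6% fell in the double knockout against WT and 14.1% against LEF1cKO. Cenpa, the centromere histone, averaged 86.3 TPM in the double knockout, 173 TPM in LEF1cKO and 197 TPM in WT (-1.24 ± 0.09, edgeR adjusted p = 0.00172). Birc5 (survivin) fell by 1.48 and Aurka, a kinase of the spindle poles, by 1.55 on the log2 scale (edgeR adjusted p = 0.00207 and 0.00251). Pttg1, securin, was the single gene of this list called in LEF1cKO against WT: it averaged 35.8 TPM in the double knockout, 25.0 TPM in LEF1cKO and 66.5 TPM in WT, and the fall in LEF1cKO was -1.40 ± 0.12 (edgeR adjusted p = 0.00945, 0.0808 and 0.1002 without WT replicates 1 and 2). Of 20 DNA replication genes 19 fell and none rose in the double knockout against WT (median -1.21, 14 to 19 falls with 1 library left out). Pola1, a subunit of the polymerase that primes DNA synthesis, averaged 19.4 TPM in the double knockout, 39.6 TPM in LEF1cKO and 43.6 TPM in WT (-1.30 ± 0.13, edgeR adjusted p = 0.00342). The cell cycle homology region words seen in Cdkn3 and Cdkn2b were present in 76.2% of the 21 promoter windows of the mitosis genes and CCAAT boxes in 85.7%, against 19.2% and 37.4% of all windows; E2F words were in 36.8% of the 19 windows of the replication genes, against 1.56% of all.

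**Figure D4:**
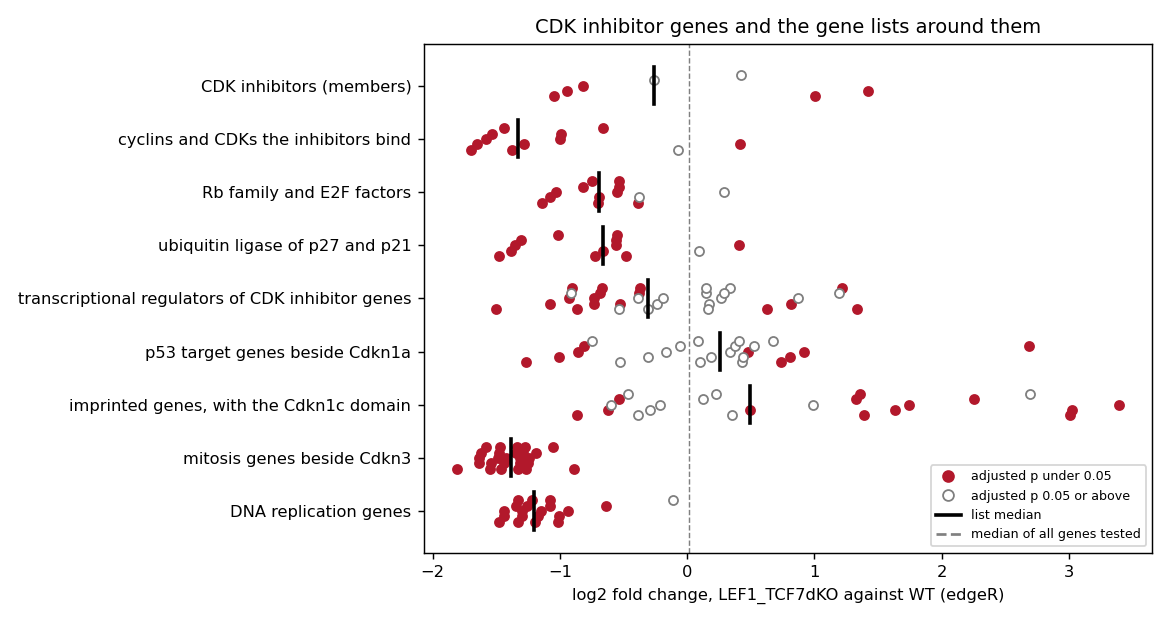
Log2 fold change in LEF1_TCF7dKO against WT of the CDK inhibitor genes and of the gene lists set beside them, 1 point a gene; filled points passed an edgeR adjusted p under 0.05, black bars are list medians and the dashed line is the median of all genes tested (0.01). The members fall on both sides of the line, from -1.04 for Cdkn2c to 1.42 for Cdkn1a, while the mitosis genes (median -1.39) and DNA replication genes (median -1.21) lie below it.

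Cdkn1c sits in an imprinted domain, and 23 imprinted genes, among them its neighbours, were tested. Of these 10 rose and 3 fell in the double knockout against WT (median 0.50), where 18.0% of all genes rose and 19.6% fell. Against LEF1cKO 6 imprinted genes rose and 1 fell, where 11.2% of all genes rose and 14.1% fell. The rises numbered 2 to 9 with 1 library left out. Within the domain, Slc22a18, a transporter gene 12.7 kb from Cdkn1c, rose, averaging 8.21 TPM in the double knockout, 3.52 TPM in LEF1cKO and 2.16 TPM in WT (1.74 ± 0.23, edgeR adjusted p = 0.00464). Kcnq1ot1, the non-coding RNA that silences the domain on the paternal copy, was 0.990 TPM in the double knockout, 1.07 TPM in LEF1cKO and 0.825 TPM in WT (0.12 ± 0.19, edgeR adjusted p = 0.640). Phlda2 and Nap1l4 gave 0.23 and -0.21 (edgeR adjusted p = 0.655 and 0.118). Rises elsewhere in the list included Gatm, a creatine synthesis gene, at 12.2 TPM in the double knockout, 1.73 TPM in LEF1cKO and 1.34 TPM in WT, and Meg3, at 15.8, 5.81 and 1.55 TPM (3.01 ± 0.42 and 3.40 ± 0.67, edgeR adjusted p = 0.00537 and 0.0123; Meg3 gave 0.0637 without double knockout replicate 1). Dcn and Igf2 also rose; Dcn is one of the fibroblast markers whose sum was higher in the double knockout. Kcnq1ot1, Phlda2 and Nap1l4 were named after their values had been seen.

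Genes next to the members on the chromosome were called in either direction. Of 13 neighbours tested, 2 rose and 3 fell in the double knockout against WT. That count lies near the 37.6% of all genes called in this comparison. Mtap, 93.4 kb from Cdkn2a on the far side from Cdkn2b, measured 18.37 and 19.89 TPM in the double knockout, 39.01 and 39.58 TPM in LEF1cKO and 36.34 and 35.06 TPM in WT, and fell (-1.05 ± 0.10, edgeR adjusted p = 0.00294) where Cdkn2b rose. On the Cdkn1a side, Rab44, 13.4 kb away, rose by 1.80 ± 0.34 (edgeR adjusted p = 0.0103, 0.0543 without double knockout replicate 1 and 0.0803 without WT replicate 2). Srsf3, a splicing factor gene 47.6 kb from Cdkn1a, fell by 0.62 on the log2 scale (edgeR adjusted p = 0.0170, lost without double knockout replicate 1 or either WT library). Faf1, 9.40 kb from Cdkn2c, gave -0.49 (edgeR adjusted p = 0.0562), and Cnih1, 3.90 kb from Cdkn3, gave -0.37 (edgeR adjusted p = 0.0321). Ap1m2, 2.87 kb from Cdkn2d, gave -0.30 (edgeR adjusted p = 0.0523). Faf1, Cnih1 and Ap1m2 were named after their values had been seen.

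Over the 6 libraries, the members' levels ran together or against each other by direction of change. Pearson's r of log2(TPM + 1) was -0.961 between Cdkn1a and Cdkn2c, -0.957 between Cdkn1a and Cdkn1b, 0.893 between Cdkn1a and Cdkn2b, and 0.965 between Cdkn2c and Cdkn3. Cdkn2d stood apart, at -0.55 to 0.18 with the others. These coefficients describe 6 libraries in 3 groups, with genotype, sort and depth shared within a group. Among 10466 tested genes with a mean of at least 5 TPM, the genes most like Cdkn1a were Slc6a9 (r = 0.9995), Sept5 and Cln3. Slc6a9, a glycine transporter gene, averaged 30.6 TPM in the double knockout, 15.7 TPM in LEF1cKO and 11.7 TPM in WT. Those most like Cdkn1b were Mycl (r = 0.997), Rasl11b and Hist3h2ba; Mycl, a Myc relative, averaged 33.7, 67.0 and 79.6 TPM in the same groups. Sprr1a (r = 0.989) and Zfp949 were among those most like Cdkn1c; Sprr1a, a gene of the cornified envelope, averaged 215, 99.7 and 77.6 TPM. Zbtb22, Mknk1 and Rras were most like Cdkn2b, and Mdh2, Lrrc59 and Wdr76 most like Cdkn2c. Angel1, Gadd45g and Paox were most like Cdkn2d, and Tfam, Ireb2 and Psma6 most like Cdkn3, all with r of at least 0.974. A search of 10466 genes over 6 libraries gave high top values for every member tested. These included Cdkn1c (0.989) and Cdkn2d (0.979), which were called in no comparison. Shared regulation was not tested.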

How the data were processed

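RNA was extracted with TRIzol, kept at an integrity number above 8, made into TruSeq mRNA libraries and sequenced in pairs on an Illumina HiSeq, per the labels' protocols. The submitters' processing notes name Bowtie2 2.2.9, RSEM 1.2.30 and the mm10 build; which annotation was counted is not given in the sources here. The authors deposited RSEM expected counts per gene, which are estimated counts, with TPM and FPKM values per gene; the authors' TPM table of all samples matched the sample files, and FPKM was not used. RSEM shares ambiguous reads between genes; the members' counts were whole.

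Rounded expected counts went into edgeR 4.0.16 (R 4.3.3): TMM factors, the default filter on low counts (19640 of 46517 genes kept), quasi-likelihood F tests in 1 fit of 6 libraries with 3 residual degrees of freedom, and Benjamini-Hochberg adjustment over all genes tested at 0.05. The 92 spike-in identifiers held 0 counts and were dropped. Intervals are 95% and cover the spread between libraries. A count of 3 was taken as the floor, 0.0475 to 0.0741 CPM, and covers counting error only. Log2 fold changes give the first group over the second, with SE. Gene coordinates came from GENCODE M21, which matched 46005 genes, and promoters from RefSeq, for 7 of the 8 members in 10 windows.

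Alternatives were other scalings, filters and tools (DESeq2 1.42.0, limma 3.58.1 with voom or on log2(TPM + 1) and log2(TPM + 0.1)), an effective length offset, 2-group fits, a replicate block and each library left out. The scripts were tested on data simulated with 1 common spread for all genes. In the double knockout against WT they found 0% of planted 1.5-fold, 21.5% of 2-fold and 85.9% of 4-fold changes. Of the 76 calls, 7 were false. Only 66, 65 and 64 of 19164 genes were planted at these folds, whereas 37.6% of genes were called in the data. The adjusted threshold was therefore harder to pass in the simulation, and its rates do not apply to the real comparison. The members and the gene lists were chosen with earlier results of these data known. In each list the text names up to 4 called genes with the smallest p in a comparison, or the 2 highest where none passed, and genes said to be chosen after their values were seen; the 3 genes most like each member are ranked by r. A few genes that this rule names are not reported here.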

Additional observations from a re-analysis of the deposited data

How the results depend on the processing

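Members called in a comparison kept their direction under every alternative that tested them. Against WT, 5 members of the double knockout changed, and 2 to 5 with 1 library left out; 4 changed with a minimum of 10 CPM in 2 libraries, a filter that removed Cdkn2b. In the double knockout against LEF1cKO, 4 changed, and 0 to 4 with 1 library left out (0 without double knockout replicate 1); 2 changed at 10 CPM and 2 in a fit of only the 2 groups. No setting called a member in LEF1cKO against WT (0 of 7; 1 at an unadjusted edgeR p under 0.05). Over all genes, LEF1cKO against WT gave 118 calls, 422 with no filter, 637 with DESeq2 and 78 to 138 with 1 library left out; the double knockout against WT gave 7389, and 1968 to 8333 with 1 library left out; the double knockout against LEF1cKO gave 4952, 2585 in a fit of only those groups, and 1 to 5973 with 1 library left out. The cause of these differences was not tested; fits without a library have fewer samples, and a group left with 1 library is assumed to vary like the others. The share of calls that rose in LEF1cKO against WT was 37.3%, but 51.2% with no filter, 58.6% with DESeq2, 24.1% with voom, 17.8% on log2(TPM + 1), 23.7% on log2(TPM + 0.1) and 19.3% in a fit of only the 2 groups.

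Uncalled differences changed sign in 5 cases. Cdkn1b in LEF1cKO against WT was 0.00655 without LEF1cKO replicate 2 (range over fits without 1 library -0.643 to 0.00655). Cdkn1c in LEF1cKO against WT was -0.284 without LEF1cKO replicate 1 and -0.0132 without WT replicate 2 (-0.284 to 0.412). For the double knockout against LEF1cKO, Cdkn1c was -0.000996 without LEF1cKO replicate 2 (-0.000996 to 0.705) and Cdkn2d was -0.107 without double knockout replicate 2 (-0.107 to 0.319). Over the genes tested in both fits, log2 fold changes of the double knockout against WT shifted by a median of 0.14 at 10 CPM, 0.12 on log2(TPM + 1) and 0.13 on log2(TPM + 0.1), and those against LEF1cKO by 0.12 at 10 CPM; the other settings shifted them by under 0.1.

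Libraries with equal replicate numbers showed little shared deviation from their group means. Their deviations correlated across genes at -0.042, 0.056 and -0.028 for the 3 pairs of groups. With 2 libraries a group this cannot exclude a shared litter or day, which the labels do not give. A fit with the replicate number as a block called 80 genes in LEF1cKO against WT, 6435 in the double knockout against WT and 3635 against LEF1cKO; of the members it called 0, 5 and 3, with Cdkn3 at an edgeR adjusted p of 0.0644 in the last.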

Other observations

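The deposited length of Cdkn2a, which RSEM weights by the abundance of its transcripts, was 895 bases in both WT and both LEF1cKO libraries, the length of Cdkn2a-202 in GENCODE M21, whose first base is 89294653 on chromosome 4, the upstream start of the gene. In both double knockout libraries it was 852 bases, the length of Cdkn2a-201, whose first base is 89282192, there from 1 count each. The upstream first exon is known as that of ARF and the downstream one as that of p16INK4a. The counts behind these lengths were 1 and 1 in the double knockout, 3 and 7 in LEF1cKO and 19 and 5 in WT, so no difference in transcript use was detectable at this depth. The promoter window at the upstream start holds an E2F word from -99 to -92 and 3 GC boxes, and that at the downstream start holds a CCAAT box beginning at 21.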
